A study of Homo sapiens with 6 samples.

Results

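The UFM1 conjugation pathway was followed through its 6 transcripts UFC1, UFM1, UFL1, DDRGK1, UFSP2 and CDK5RAP3, which are rows of a deposited table of 20024 genes and were all found in it by name. The table comes from RNA immunoprecipitation followed by sequencing (RIP-seq), in which an antibody against the RNA-binding protein PTBP1 pulled down RNA from AC16 cells, labelled as cardiomyocytes of the heart. There were 3 libraries of genotype DCRT-KO, in which the long noncoding RNA DCRT is knocked out, and 3 of genotype WT, and all 6 used the PTBP1 antibody. The labels give no treatment or time, and do not say how the knockout was made, whether the DCRT-KO cells are 1 clone, or whether libraries came from separate cultures, so the spread between libraries may be technical. Because the WT columns share a replicate number, the WT libraries are called a, b and c, in the order of the columns. The members were chosen by the FPKM values of UFC1, which was among the largest rises of DCRT-KO against WT, and by belonging to its pathway. The members' values in that comparison are therefore a description, with no test.

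UFM1 is a small protein that cells attach to other proteins, much as they attach ubiquitin. Activated UFM1 is loaded onto the conjugating enzyme UFC1 (the E2), and the ligase UFL1 (the E3), held at the endoplasmic reticulum by DDRGK1 and joined by the adaptor CDK5RAP3, passes it on to its targets. The proteases UFSP1 and UFSP2 trim the UFM1 precursor and remove UFM1 again. The best known target is the ribosomal protein RPL26 on ribosomes docked at the endoplasmic reticulum, and the pathway acts in the clearing of stalled ribosomes and in the turnover of that membrane. In mice, loss of Ufl1 from heart muscle cells leads to cardiomyopathy.

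PTBP1 binds stretches of RNA rich in C and U, so the most pyrimidine-rich 30 bases of the principal transcript are shown first for UFM1, UFL1, DDRGK1, UFSP2 and CDK5RAP3. They were read from GENCODE 29 (GRCh38) transcripts, in DNA letters, 5′ to 3′ on the RNA strand, with every TCTT, a short motif known from PTBP1 sites, in capitals. Among windows tied for pyrimidines, the one with the most TCTT and CTCTCT matches was taken, so the choice favoured these motifs.
UFM1: tttttatttatttgttttgttttttttttt
UFL1: tattgcacctctgctacccactTCTTtatc
DDRGK1: ctatacaTCTTcatccctccccaccatcct
UFSP2: cttatcgatctctgcagactatctgcTCTT
CDK5RAP3: ccctccgtgtTCTTgcctgcccaTCTTctc

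The windows of UFM1 (chr13:38362450-38362479, plus strand, exon 6), DDRGK1 (chr20:3190577-3190606, minus strand, exon 9) and CDK5RAP3 (chr17:47981505-47981534, plus strand, exon 14) lie in 3′ UTRs and hold 26, 24 and 25 pyrimidines. The window of UFSP2 (chr4:185408330-185408359, minus strand, exon 8) lies in coding sequence and holds 21. That of UFL1 also lies in coding sequence, starts in exon 9 and crosses the junction to the next exon (chr6:96537543-96538653, plus strand, a span that includes the intron). It holds 23.

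None of the 5 windows stood out for its pyrimidines. Among 11425 genes past the expression filter with a protein-coding transcript, the best window held a median of 26 pyrimidines. A window at least as rich as that of UFM1 was found in 50.2% of them. For CDK5RAP3, DDRGK1, UFL1 and UFSP2 the share was 69.1%, 84.9%, 94.1% and 99.4%. Over whole principal transcripts, pyrimidines made up 47.2% of UFC1 and 43.2% of DDRGK1, against a median of 49.4%. All 6 members fell below that median, and DDRGK1 stood at percentile 2.06. The motif TCTT occurred 6 times in UFC1 and 27 times in UFL1. Per kilobase, that was 5.39 and 6.39, the 57.7 and 74.5 percentile. DDRGK1 had 3.83 per kilobase, UFSP2 4.91, CDK5RAP3 4.29 and UFM1 5.10, against a median of 4.98. TCTT was present in 99.4% of the transcripts and CTCTCT in 62.6%, on the RNA strand only and with overlapping matches counted. These are matches of letters in spliced transcripts, and introns were not used here.

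FPKM values (reads scaled to gene length and library total) were turned back into whole reads, which came to 1798841 to 2589080 per WT library and 373354 to 1380722 per DCRT-KO library, so depth goes with genotype and cannot be told apart from it. DCRT-KO replicate 3 was the deepest of its group. Across tested genes its log2 values correlated with the WT libraries at Pearson r of 0.919 to 0.933 and with DCRT-KO replicates 1 and 2 at 0.895 to 0.8995, while those 2 correlated with each other at 0.883. Set against sampling noise, the chi-square per degree of freedom of its reads was 3.90 to 5.88 against DCRT-KO replicates 1 and 2. Against WT it was 7.75 to 9.44. This measure grows with depth and the WT libraries are deeper, so it does not tell which group replicate 3 is nearer. In 54.8% of tested genes, replicate 3 was nearer the WT mean than the mean of DCRT-KO replicates 1 and 2, in log2 values. Counting noise is larger in the shallower DCRT-KO replicates 1 and 2. Neither this share nor the correlations therefore tell which group replicate 3 is nearer. Many levels and differences are also given without DCRT-KO replicate 3, though not all that move. No row carries the name DCRT, so the knockout was not checked. Of 12 cardiomyocyte markers, 7 had no read in any library (MYH6, MYH7, TNNT2, TNNI3, ACTN2, MYL7 and NKX2-5), and the summed level of the list was 11.3 to 13.3 FPKM in WT and 8.41 to 15.5 in DCRT-KO. The 8 fibroblast markers summed to 87.5 to 105 FPKM in WT and 90.4 to 121 in DCRT-KO, with COL1A2, LUM and DCN at 0. The 4 epithelial markers summed to 58.5 to 67.0 FPKM in WT and 93.8 to 227 in DCRT-KO, with CDH1 at 0. In the cardiomyocyte, fibroblast and epithelial lists alike, 2 genes had a mean of at least 1 FPKM, so few genes carry each sum. Limma called 1 epithelial marker between the groups, and no cardiomyocyte or fibroblast marker. Endothelial markers stayed at 1.38 to 3.03 FPKM in all libraries, smooth muscle markers at 0.674 to 2.04, and blood markers at or below 0.335. The part of these levels in the results below was not tested. In bulk RNA, fewer cells with a transcript and less of it per cell cannot be told apart, and without an input library, which was not analysed here, neither can abundance, PTBP1 binding and background RNA in RIP.

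The conjugating enzyme UFC1 (ENSG00000143222) was close to absent in WT RIP and present in every DCRT-KO library. Its FPKM was 0.184, 0 and 0 in WT a, b and c against 7.21, 7.65 and 1.38 in DCRT-KO replicates 1, 2 and 3. The groups did not overlap, but replicate 3 was far below the other DCRT-KO libraries. The mean was 0.0613 ± 0.106 FPKM in WT against 5.41 ± 3.50 in DCRT-KO (SD, n = 3 each), a difference of 2.39 ± 0.61 (SE) on the log2(FPKM + 1) scale, or 2.99 without DCRT-KO replicate 3.

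These values rest on 19 reads in all. WT a had 1 read of UFC1 and WT b and c had none, while DCRT-KO replicates 1, 2 and 3 had 8, 6 and 4. Scaled to the library total, as RPM, that was 0.386 in WT a, against 15.1, 16.1 and 2.897 in the DCRT-KO libraries. The floor of 3 reads stood at 1.67 RPM in WT b, 1.45 in WT c and 2.17 in DCRT-KO replicate 3. The exact Poisson interval (95%, counting error only) of DCRT-KO replicate 3 was 0.789 to 7.42 RPM. It overlapped those of WT a (0.00978 to 2.15), WT b (0 to 2.05) and WT c (0 to 1.79), and also those of the other DCRT-KO libraries. Pooled over libraries, UFC1 had 0.155 RPM in WT against 7.89 in DCRT-KO, a ratio of 50.9 with a counting interval of 8.03 to 2120. Without DCRT-KO replicate 3 the ratio was 100.2 (15.2 to 4235). At the pooled DCRT-KO level the WT libraries would have held 50.9 reads of UFC1, where 1 was found. UFC1 was chosen by these same values, so this count and the intervals describe it and are no test. The intervals also leave out the spread between libraries.

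**Figure D1:**
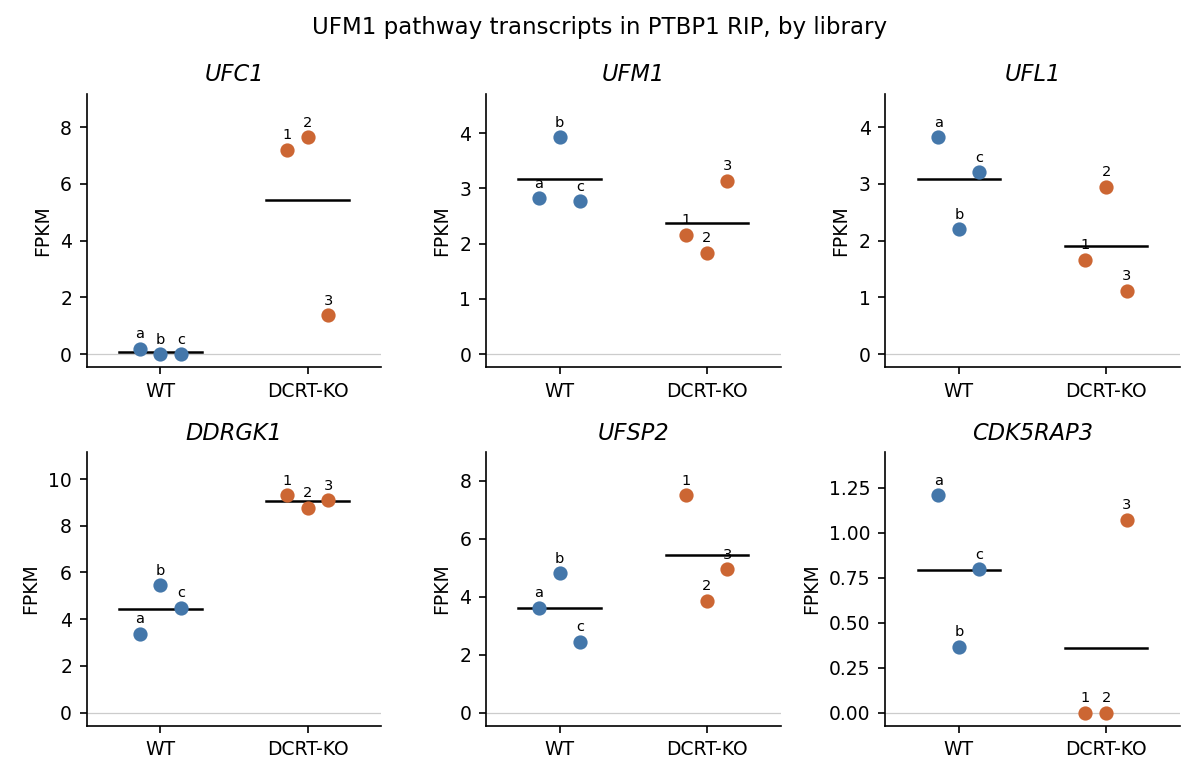
FPKM of the 6 UFM1 pathway transcripts (vertical axes, linear, each panel with its own scale) in the 3 WT libraries (a, b, c) and the 3 DCRT-KO libraries (1, 2, 3); points are libraries and horizontal lines group means. UFC1 and DDRGK1 are the members whose groups do not overlap, and UFC1 in DCRT-KO replicate 3 lies at 1.38 FPKM against 7.21 and 7.65 in the other DCRT-KO libraries.

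UFC1 at this level in WT was unlike the other E2 enzymes. The 35 other E2 enzymes listed, 29 for ubiquitin and 6 for other ubiquitin-like modifiers, had WT means from 1.41 FPKM (UBE2Q1) to 63.2 (UBE2C), with a median of 12.1. UFC1, at 0.0613 FPKM, ranked last of 36. In DCRT-KO its mean of 5.41 FPKM ranked 25 of 36, where the median of the others was 11.6. Without DCRT-KO replicate 3 its mean was 7.43 FPKM, ranked 20 of 36, and the median of the others 10.8. The lowest E2 in DCRT-KO was UBE2F, a NEDD8 enzyme, at 1.09 FPKM. These levels are per length and come from the comparison that chose UFC1, so no test is given for the ranks.

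**Figure D2:**
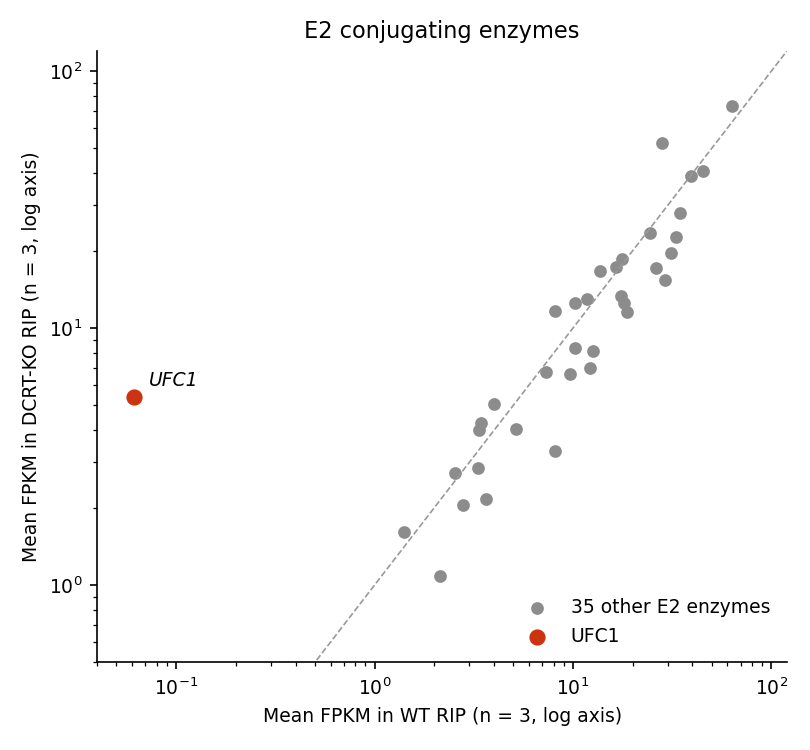
Mean FPKM of 36 E2 conjugating enzymes in WT RIP (horizontal) and DCRT-KO RIP (vertical), both on log axes, with the line of equal means dashed; each point is a gene, mean of 3 libraries. The 35 other E2 enzymes lie along the line, and UFC1 stands apart on the left, at 0.0613 FPKM in WT against 5.41 in DCRT-KO.

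Genes with a read pattern like that of UFC1 were listed with cut-offs set at its own reads. UFC1 was chosen for its large rise, so a short list follows in part from that choice and is no test. Of 20024 genes, 5341 had at most 1 read over the WT libraries, and 8 of those, UFC1 included, had at least 18 reads over the DCRT-KO libraries. The other 7, singled out after their values were seen, were the muscle myosins MYH1, MYH2, MYH4, MYH8 and MYH13, the kinase gene WNK2 and the homeobox gene HDX. WNK2 had 1 read in WT against 23 in DCRT-KO, and HDX 0 and 35. Of the 8, UFC1 alone had its fewest DCRT-KO reads in replicate 3, the deepest library of that group; HDX had 15, 7 and 13 reads there and MYH13 24, 23 and 110.

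The scaffold DDRGK1 (ENSG00000198171), which anchors the ligase complex in the membrane of the endoplasmic reticulum, was the other member whose groups did not overlap. Its FPKM was 3.37, 5.46 and 4.50 in WT a, b and c against 9.30, 8.77 and 9.09 in DCRT-KO replicates 1, 2 and 3. All DCRT-KO libraries were higher than every WT library, and replicate 3 lay between the other DCRT-KO libraries. The mean went from 4.44 ± 1.05 to 9.05 ± 0.265 FPKM (SD, n = 3 each), 2.04 times the WT mean, and the log2 difference was 0.90 ± 0.16 (SE). Reads were 16, 18 and 17 in WT against 9, 6 and 23 in DCRT-KO, and the pooled RPM ratio was 2.11 with a counting interval of 1.35 to 3.27, or 2.10 (1.10 to 3.80) without DCRT-KO replicate 3. The 2 of 6 members whose groups did not overlap were both higher in DCRT-KO. Among all 11445 tested genes the groups did not overlap in 30.3%, with DCRT-KO higher in 15.5% and lower in 14.8%.

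The ligase UFL1 (ENSG00000014123), the pathway's E3, had FPKM of 3.83, 2.20 and 3.20 in WT against 1.67, 2.95 and 1.12 in DCRT-KO. DCRT-KO replicate 2 lay within the WT range and the other DCRT-KO libraries below it. The mean was 3.08 ± 0.819 FPKM in WT against 1.91 ± 0.941 in DCRT-KO, and the log2 difference was -0.51 ± 0.31 (SE), or -0.31 without DCRT-KO replicate 3. The reads were 45, 18 and 30 against 4, 5 and 7. The pooled RPM ratio was 0.486 (counting interval 0.267 to 0.832), and 0.692 (0.307 to 1.37) without DCRT-KO replicate 3, where the interval includes equal levels.

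The adaptor CDK5RAP3 (ENSG00000108465) was the member with the fewest reads after UFC1. Its FPKM was 1.21, 0.366 and 0.798 in WT against 0, 0 and 1.07 in DCRT-KO. DCRT-KO replicate 3 lay within the WT range, and the other DCRT-KO libraries had no read. At the pooled WT level these would have held 2.70 and 1.91 reads, so neither library alone could show an absence at this depth. The pooled RPM ratio was 0.771 (0.324 to 1.65), and without DCRT-KO replicate 3 it was 0 with an upper limit of 0.846. The log2 difference was -0.46 ± 0.40 (SE), or -0.81 without DCRT-KO replicate 3. With a mean under 1 FPKM over the 6 libraries, CDK5RAP3 was the member that did not pass the expression filter. UFC1 passed it only through DCRT-KO.

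The modifier itself, UFM1 (ENSG00000120686), overlapped between groups. It had 2.82, 3.93 and 2.77 FPKM in WT against 2.16, 1.83 and 3.14 in DCRT-KO, with 32, 31 and 25 against 5, 3 and 19 reads. DCRT-KO replicate 3 lay inside the WT range and the other DCRT-KO libraries below it. The mean was 3.17 ± 0.659 FPKM in WT against 2.38 ± 0.680 in DCRT-KO. The log2 difference was -0.31 ± 0.21 (SE), or -0.47 without DCRT-KO replicate 3. The pooled RPM ratio was 0.867 (0.541 to 1.35), or 0.650 (0.272 to 1.34) without DCRT-KO replicate 3.

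The protease UFSP2 (ENSG00000109775), which releases UFM1 from its targets, had 3.61, 4.80 and 2.44 FPKM in WT against 7.49, 3.86 and 4.95 in DCRT-KO. Its groups overlapped through DCRT-KO replicate 2, and replicate 1 was the highest. The mean was 3.62 ± 1.18 FPKM in WT against 5.43 ± 1.87 in DCRT-KO. The log2 difference was 0.47 ± 0.32 (SE), or 0.51 without DCRT-KO replicate 3. Reads were 26, 24 and 14 against 11, 4 and 19. The pooled RPM ratio was 1.501 (0.960 to 2.31), or 1.68 (0.887 to 2.98) without DCRT-KO replicate 3.

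**Figure D3:**
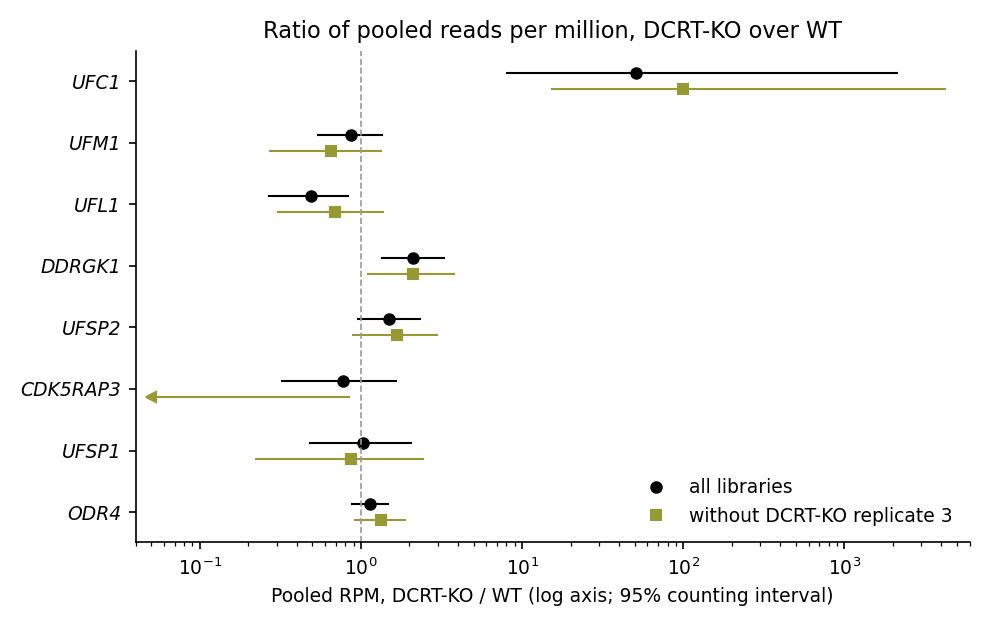
Ratio of pooled RPM, DCRT-KO over WT, for the 6 members and for UFSP1 and ODR4 (log axis), with 95% counting intervals; circles use all libraries, squares leave out DCRT-KO replicate 3, and the arrow marks CDK5RAP3, which then has no read. UFC1 stands at 50.9 and 100.2, and UFSP1 and ODR4 lie near 1.

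Ordered by level per length, the WT means ran DDRGK1, UFSP2, UFM1, UFL1, CDK5RAP3 and UFC1. The first 4, from 4.44 down to 3.08 FPKM, had overlapping libraries from each to the next, while CDK5RAP3 lay below all libraries of UFL1, and UFC1 below all of CDK5RAP3. In DCRT-KO the order was DDRGK1, UFSP2, UFC1, UFM1, UFL1 and CDK5RAP3. There DDRGK1 lay above every UFSP2 library, and the next 4 overlapped from each to the next. Without DCRT-KO replicate 3 the order was DDRGK1, UFC1 (7.43 FPKM), UFSP2 (5.68), UFL1 (2.31), UFM1 (1.997) and CDK5RAP3, with UFC1 still overlapping UFSP2 and UFL1 overlapping UFM1. With all libraries CDK5RAP3 was again below UFL1, by a margin of 1.07 against 1.12 FPKM. UFC1 held 1.22%, 0% and 0% of the members' summed FPKM in WT a, b and c against 25.9%, 30.5% and 6.65% in DCRT-KO replicates 1, 2 and 3. Without UFC1, the other 5 members summed to 15.1 ± 1.55 FPKM in WT against 19.1 ± 1.62 in DCRT-KO (SD, n = 3 each). DDRGK1 alone went from 4.44 to 9.05 FPKM, and UFSP2 was also higher. UFM1, UFL1 and CDK5RAP3 had lower means in DCRT-KO, so the sum does not show a rise of the pathway as a whole.

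The deposited lengths bear on these levels. They equal, or lie close to, the summed length of all GENCODE 29 exons of a gene and exceed the principal transcript. For UFC1 the lengths were 2100 and 1114 bases and for CDK5RAP3 6077 and 1866, so FPKM understates a gene whose reads come from that transcript alone. For DDRGK1 the lengths were 1832 and 1306 bases, for UFM1 4382 and 3138, for UFSP2 2778 and 1630, and for UFL1 4539 and 4224. A ratio of FPKM between groups for the same gene is not touched by this. The log2 differences are, because a constant is added to FPKM before the log is taken, so too long a length makes them smaller. The expression filter, set on mean FPKM, also depends on the length.

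The other pathway genes described here, UFSP1 and ODR4, did not pass the test. The protease UFSP1 had 5.32 ± 1.41 FPKM in WT against 4.48 ± 3.98 in DCRT-KO (limma log2 difference -0.68 ± 0.69 SE, adjusted p = 0.584), with no read in DCRT-KO replicate 2. ODR4, a membrane protein reported to hold UFSP2 at the endoplasmic reticulum, had 7.96 ± 0.366 and 9.47 ± 3.10 FPKM (limma log2 difference 0.19 ± 0.24 SE, adjusted p = 0.668). Neither was called by limma or by voom on whole reads, and neither had an unadjusted p under 0.05.

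Around the pathway, 136 genes of 10 companion lists were tested with limma over all 11445 genes, and 2 were called, ISG15 and ZNF598, both higher in DCRT-KO. That is 1.47% of the companion genes, against 3.55% of all tested genes called in either direction, 2.35% called higher and 1.2% called lower. ISG15, a ubiquitin-like modifier induced by interferon, rose from 3.52 ± 1.89 to 19.4 ± 9.31 FPKM (limma log2 difference 2.18 ± 0.39 SE, adjusted p = 0.0269), on 9, 9 and 3 reads against 15, 5 and 18. ZNF598, the ubiquitin ligase that senses collided ribosomes, rose from 5.28 ± 0.560 to 11.05 ± 1.44 FPKM (0.94 ± 0.20 SE, limma adjusted p = 0.0426), with 57, 49 and 52 reads in WT against 24, 22 and 71 in DCRT-KO. Both calls were lost without any 1 of the WT libraries or without DCRT-KO replicate 2 (limma adjusted p from 0.0625 to 0.180), and ZNF598 also without DCRT-KO replicate 1 (0.0532). Without DCRT-KO replicate 3, limma called 7 of 136 companion genes higher and 18 lower, against 724 and 836 of all 11420 genes tested. There the share called lower was larger among companion genes than among all genes, and the share called higher smaller. The lower calls included 7 ubiquitin E2 enzymes, 4 translocon and docking genes, 2 UFM1 targets or readers and 2 unfolded protein response genes.

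Over all tested genes, 5400 had higher and 6045 lower values in DCRT-KO, with a median log2 difference of -0.04. At an unadjusted p under 0.05 limma had 12.3% of them higher and 11.3% lower, and voom called 5.85% higher and 3.4% lower. UFM1 targets and readers had 3 higher and 5 lower among 8 tested genes, with a median of -0.02 (0.10 with voom). That median was 0.04 without WT a or WT b, 0.13 without DCRT-KO replicate 1 and -0.15 without replicate 3, so its sign rested on which libraries were used. They gave no call in the main limma fit, against 1 higher and 1 lower at an unadjusted p under 0.05 and 1 lower with voom. Limma called 1 lower with the filter of 5 FPKM, with median-of-ratios scaling and with quantile normalization. Without DCRT-KO replicate 3 it called 2 lower. RPN1, a subunit of the oligosaccharyl transferase, had 59.6 ± 11.2 FPKM in WT against 82.3 ± 11.8 in DCRT-KO (limma adjusted p = 0.174). RPL26 itself, named here as the main target, had 13.9 ± 3.17 and 13.1 ± 5.31 FPKM (limma log2 difference -0.14 ± 0.30 SE, adjusted p = 0.814). The voom call was MRE11, a DNA break repair nuclease, at 19.5 ± 2.38 and 10.5 ± 2.18 FPKM (limma adjusted p = 0.0547, voom 0.0208).

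Of 22 translocon and ribosome docking genes, 8 were higher and 14 lower, with a median log2 difference of -0.11 (-0.05 without DCRT-KO replicate 1 and -0.23 without replicate 3). The main limma fit called none, against 1 higher and 3 lower at an unadjusted p under 0.05. Voom called SSR3 lower, and limma called 1 gene lower with quantile normalization and 4 without DCRT-KO replicate 3. SEC61A1, the channel subunit, had 89.4 ± 10.5 FPKM in WT against 94.5 ± 11.03 in DCRT-KO (limma adjusted p = 0.801), and DDOST had 92.4 ± 8.90 and 92.2 ± 19.96 (limma adjusted p = 0.960). Of 8 receptors for autophagy of the endoplasmic reticulum, 3 were higher and 5 lower, with a median of -0.40 (0.08 with a filter of 5 FPKM, -0.24 without DCRT-KO replicate 1 or 2 and -0.67 without replicate 3). The main limma fit called none, against 1 higher and 2 lower at an unadjusted p under 0.05. Voom called TEX264 higher, and limma called 1 gene lower without DCRT-KO replicate 3. RTN3 had 31.7 ± 6.51 and 23.7 ± 7.65 FPKM (limma adjusted p = 0.319) and RETREG2 20.4 ± 3.06 and 23.3 ± 10.06 (limma adjusted p = 0.895). ZNF598 was the only call of the main limma fit among 16 genes of ribosome collision and quality control. There 10 were higher and 6 lower, with a median log2 difference of 0.07. It was 0.16 without DCRT-KO replicate 1, 0.0027 without replicate 2 and 0.05 without WT c.

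Among 24 genes of the unfolded protein response, 18 had higher values in DCRT-KO, with a median log2 difference of 0.21 (0.13 with quantile normalization). The main limma fit called none, and without DCRT-KO replicate 3 limma called 2 higher and 2 lower. At an unadjusted p under 0.05, 4 were higher and 4 lower, and voom called the chaperone HSPA5 higher (0.0117; limma adjusted p = 0.0739). The chaperones CALR and CANX had 48.6 ± 7.46 and 59.1 ± 6.20 FPKM in WT against 67.1 ± 3.99 and 63.1 ± 3.69 in DCRT-KO (limma adjusted p = 0.131 and 0.731).

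The enzymes most like those of the UFM1 pathway gave no call in the main limma fit either. Of 29 ubiquitin E2 enzymes, 20 had lower values in DCRT-KO, with a median log2 difference of -0.27. The median was -0.15 without WT a, -0.09 without DCRT-KO replicate 2 and -0.48 without replicate 3, and -0.12 with voom. Without DCRT-KO replicate 3, limma called 1 of the 29 higher and 7 lower. It called 2 lower with quantile normalization and 1 lower with the filter of 5 FPKM. At an unadjusted p under 0.05, 2 were higher and 9 lower, and voom called UBE2R2 and UBE2W lower. UBE2C, an E2 of the anaphase-promoting complex, had 63.2 ± 18.02 and 72.95 ± 50.6 FPKM (limma adjusted p = 0.965), and UBE2G1 45.2 ± 0.820 and 40.8 ± 5.31 (limma adjusted p = 0.586). Of 6 E2 enzymes of other modifiers 3 were higher and 3 lower, with a median of 0.07 (-0.11 without WT c, 0.12 without WT b and 0.23 without DCRT-KO replicate 1). None was called by limma or voom, and none had an unadjusted p under 0.05. UBE2M, for NEDD8, had 13.7 ± 5.84 and 16.7 ± 3.55 FPKM (limma adjusted p = 0.524), and ATG3, for the LC3 family, 5.19 ± 1.04 and 4.05 ± 2.68 (limma adjusted p = 0.525). Of 8 E1 enzymes, 3 were higher and 5 lower, with a median of -0.39 (-0.53 without DCRT-KO replicate 3). Limma and voom called none with all libraries, with 1 higher and 2 lower at an unadjusted p under 0.05. Without DCRT-KO replicate 3, limma called 1 E1 enzyme lower. UBA1, the main ubiquitin E1, had 23.0 ± 1.001 and 30.97 ± 7.71 FPKM (limma adjusted p = 0.290), and SAE1, of the SUMO E1, 16.0 ± 2.95 and 23.7 ± 1.79 (limma adjusted p = 0.114). Of the 12 other ubiquitin-like modifiers, 8 had lower values, with a median of -0.33. It was 0.18 with a filter of 5 FPKM, -0.03 without DCRT-KO replicate 2 and -0.47 without replicate 3. ISG15 was the only call of the main limma fit, and voom also called FAU higher.

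**Figure D4:**
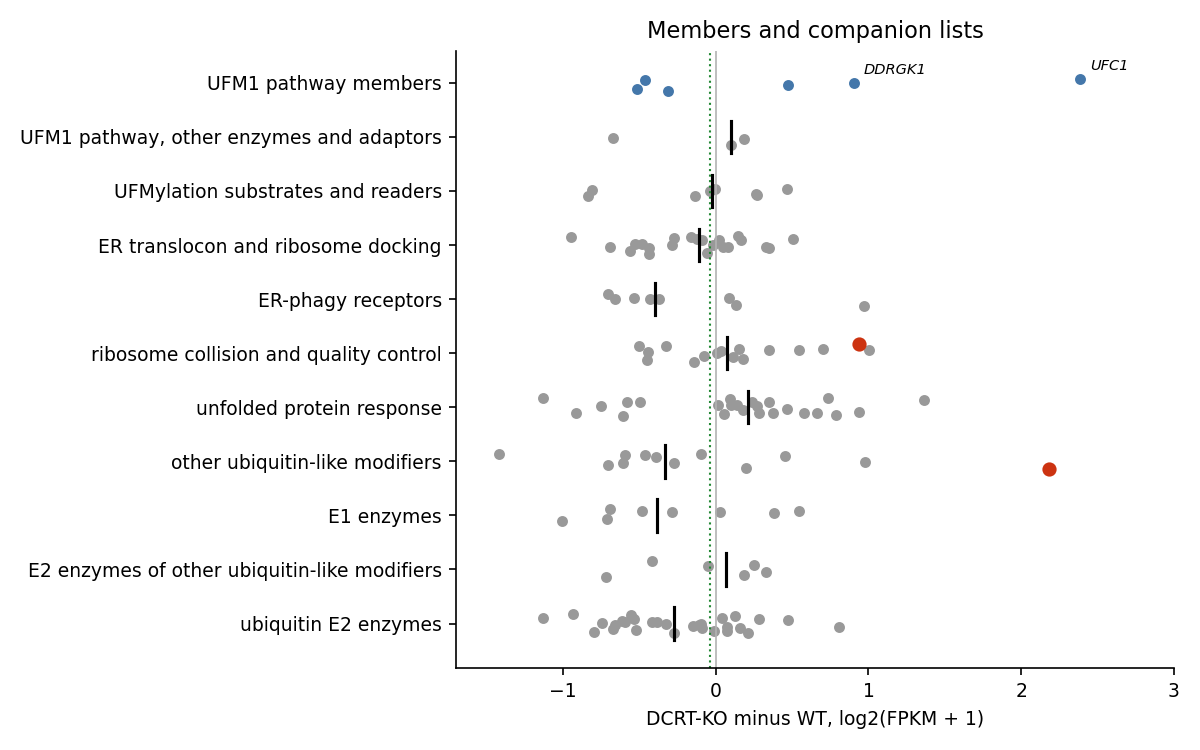
Difference between DCRT-KO and WT on the log2(FPKM + 1) scale (horizontal) for the 6 members (top row, blue, no test) and the tested genes of 10 companion lists (grey; red where limma called the gene); vertical bars are list medians, and the dotted line is the median of all tested genes, -0.04. The red points are ISG15 and ZNF598, and UFC1 at 2.39 lies to the right of every companion gene.

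Genes with the most similar profile over the 6 libraries were named by the Pearson correlation of log2(FPKM + 1), a description over libraries that differ in depth. For UFC1 they were WDR81, a protein of endosomes, PLIN3, a coat protein of lipid droplets, and LINGO3 (r = 0.996, 0.996 and 0.995, n = 6). WDR81 had 2.98, 2.95 and 2.88 FPKM in WT against 6.94, 6.43 and 4.03 in DCRT-KO, so it shared the intermediate value in DCRT-KO replicate 3 but not the near absence in WT. LINGO3 had no read in WT against 5, 3 and 3 in DCRT-KO. Such values were common, since 651 of 11445 tested genes had r above 0.9 with UFC1. The nearest profile was that of HSF2 for UFM1 (r = 0.990), CCDC91 for UFL1 (0.978), LRRC71 for DDRGK1 (0.993), KRT10 for UFSP2 (0.978) and C15orf40 for CDK5RAP3 (0.987). Among the members themselves r ran from -0.83, between UFC1 and UFM1, to 0.81, between UFC1 and DDRGK1 (n = 6). The group difference enters both values.

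The genes beside the members were read for their positions, as the deposited table gives them. UFC1 lies at chr1:161152776-161158856 on the plus strand, with USP21 593 bases beyond its end on the same strand and DEDD 20087 bases before it. USP21, a ubiquitin protease, had 10.3 ± 2.62 FPKM in WT against 9.75 ± 6.18 in DCRT-KO (limma adjusted p = 0.775), and DEDD 4.04 ± 0.262 and 6.30 ± 2.56 (limma adjusted p = 0.382), so both neighbours were covered in WT, where UFC1 had 1 read. Within 5 Mb on either side, 44 of 61 tested genes had higher values in DCRT-KO, with a median log2 difference of 0.17.

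DDRGK1 (chr20:3190350-3204685, minus strand) lies between LZTS3 and ITPA, which had limma adjusted p of 0.712 and 0.349. In its window 50 of 59 tested genes had higher values in DCRT-KO, with a median log2 difference of 0.36 against 0.90 for DDRGK1. UFL1 (chr6:96521595-96555276, plus strand) lies in a window where 11 of 12 tested genes had lower values, with a median of -0.84, lower than its own -0.51. Its neighbours FUT9 and FHL5 had 1 and 0 reads in all. In the window of CDK5RAP3 (chr17:47967810-47981781, plus strand) 68 of 105 were lower (median -0.20), and its neighbours PRR15L and COPZ2 had 5 and 4 reads in all. In that of UFM1 (chr13:38349849-38363619, plus strand) 18 of 28 were higher (median 0.07), with FREM2 at a limma adjusted p of 0.932 and TRPC4 at 3 reads in all. In that of UFSP2 (chr4:185399537-185425979, minus strand) 11 of 21 were lower (median -0.24). UFSP2 overlaps ANKRD37 on the opposite strand by 1092 bases. The kit is stated to keep strand but the counting is not, so their reads may not be told apart; ANKRD37 had 3, 5 and 4 reads in WT against 2, 0 and 9 in DCRT-KO (limma adjusted p = 0.796). C4orf47, 269 bases beyond UFSP2, had a limma adjusted p of 0.904. In GENCODE 29 antisense genes also overlap UFC1, UFL1 and CDK5RAP3. The part of the neighbours or of antisense reads in the members' differences was not tested.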

How the data were processed

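The authors deposited 1 table of FPKM per gene (20024 genes), with lengths, positions and names, per the file headers. The submitters' processing notes name cutadapt 1.2.1. The build is not given in the sources used here, nor is any aligner or counter. Multiplying FPKM by length gave whole multiples of a step set by each library in 100% of values (tolerance 1e-06), read here as whole reads. WT columns were matched to the group only and DCRT-KO columns to samples, and 0 FPKM columns were left unused. All 6 libraries were kept. Replicates differed beyond sampling noise (chi-square divided by its degrees of freedom, 2.82 to 5.88), which does not show that they came from separate cultures.

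The 11445 genes whose mean reached 1 FPKM entered a two-sided limma test (version 3.58.1, R 4.3.3) of log2(FPKM + 1), with a trended variance. P-values were adjusted by Benjamini-Hochberg and called at 0.05. FPKM fixes the library total, and the log2(FPKM + 1) scale understates the change of low genes. Members have values, log2 differences (DCRT-KO minus WT) with an SE from the spread within groups, and exact Poisson or binomial (Clopper-Pearson) 95% intervals on reads, which cover counting error only, as do floors of 3 reads. The alternatives were limma voom on whole reads, each library left out, quantile normalization, median-of-ratios scaling, other filters (none, or 5 FPKM), a pseudocount of 0.1, robust estimation and no variance trend.

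The members and lists were chosen with earlier results of these data known. Named genes were the members; UFSP1 and ODR4; from each other list up to 4 called genes, or the 2 with the highest mean; the genes with the most similar profile (3 for UFC1, 1 for each other member); and the nearest gene on each side. A few genes covered by this rule, and 1 member's sequence, are not reported here. RPL26, MRE11, SSR3, TEX264, HSPA5, FAU, UBE2R2, UBE2W, UBE2Q1 and UBE2F were named after their values were seen. Python 3.11.15, NumPy 2.4.6, pandas 2.3.3 and SciPy 1.17.1 were used.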

Additional observations from a re-analysis of the deposited data

How the results depend on the processing

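The limits of these results are depth and replicate number: UFC1 rests on 19 reads, CDK5RAP3 on 42, and every DCRT-KO library is shallower than every WT library. No paired analysis was possible because the WT columns carry a repeated number. The sign of each member's log2 difference was the same in all 57 recomputed values, and 52 moved by less than the spread between replicates. These values share most of their libraries and include those that chose UFC1, so their agreement is no test. For UFC1 and DDRGK1, whose groups did not overlap, leaving out a library or changing the pseudocount could not change the sign. With a pseudocount of 0.1 UFC1 had 4.95 and CDK5RAP3 -1.85; with voom UFC1 had 4.24, UFL1 -0.96 and DDRGK1 1.11. The cause was not tested. CDK5RAP3 was not recomputed under median-of-ratios scaling, quantile normalization or voom, and filters and variance models leave a difference as it is.

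Counts of called genes moved more. Against 269 higher and 137 lower, 72 and 50 were called with no filter, 70 and 64 with no variance trend, and 669 and 389 with voom, while 90 lower were called with a pseudocount of 0.1 and 278 lower with quantile normalization. Leaving out each library gave 0 to 724 higher and 0 to 836 lower: 4 and 0 without WT a, 8 and 0 without WT b, 0 and 0 without WT c, 135 and 70 without DCRT-KO replicate 1, 42 and 23 without replicate 2, and 724 and 836 without replicate 3. Of companion genes, 2 were called higher and 0 lower. This became 0 higher with no filter or no variance trend, 5 higher and 4 lower with voom, and 2, 1 and 4 lower with the 5 FPKM filter, median-of-ratios scaling and quantile normalization. Leaving out each library gave 0 to 7 higher and 0 to 18 lower companion genes, the highest counts without DCRT-KO replicate 3.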
